A study of Homo sapiens with 2 samples.

Results

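The IGF2BP, LIN28 and HMGA genes are oncofetal genes, meaning that they are active in fetal tissues and in some cancers and are low in most adult tissues. All 7 human members were taken by gene symbol and mapped to Ensembl identifiers, out of 57773 genes counted in the BCP-ALL cell lines REH and 697. They are IGF2BP1, IGF2BP2 and IGF2BP3, LIN28A and LIN28B, and HMGA1 and HMGA2. The set was chosen by family with the read counts of both libraries known, the large difference of IGF2BP1 between REH and 697 among them, so that the ratios of the members are a description and carry no test. Of the 7 members, 5 reached the minimum of 10 reads in REH or 697 and entered the comparison of 19145 genes, and LIN28A and LIN28B did not.

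The IGF2BP proteins bind messenger RNAs in the cytoplasm, many of them marked by N6-methyladenosine (m6A), and affect their stability, transport and translation. LIN28A and LIN28B bind the precursors of the let-7 microRNAs and block their maturation, and let-7 in turn represses LIN28B, HMGA2 and IGF2BP1 through sites in their 3′ untranslated regions (UTRs). HMGA1 and HMGA2 are small AT-hook proteins that bind the minor groove of DNA and alter chromatin structure. In blood formation, LIN28B, IGF2BP3 and HMGA2 are known for a fetal program of stem cells and B cell precursors that fades after birth.

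REH is an ETV6/RUNX1-positive line that has also lost its other ETV6 allele, and 697 is a line without that fusion. Both are established human lines of B-cell precursor acute lymphoblastic leukemia, labelled B-ALL, grown in the same serum-containing medium with no treatment compared between them. One library of total RNA was sequenced per line, so every ratio below compares 1 REH library with 1 697 library, the variation between cultures is unknown and no p-value is given. The lines also differ in much besides the fusion, and its part in any ratio cannot be told apart from the rest.

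The REH library had 45188375 reads in genes and the 697 library 41097497. Multimapping reads, which are not counted, made up 10.8% of REH and 15.4% of 697. Of 17 B-precursor markers in the files, 16 had at least 10 reads in REH and 16 in 697. They were not the same 16, since VPREB1 fell short in REH and CD34 in 697. The 17 markers summed to 6978 CPM in REH and 9850 CPM in 697, CPM being the reads of a gene relative to the scaled library total. VPREB1, a component of the surrogate light chain of the pre-B cell receptor, had 3 reads in REH and 10039 in 697. It was the 1 marker past the threshold (a log2 ratio of 2 in size) toward 697. IGLL1, the other component, had 14635 reads in REH and 18608 in 697 and stayed within the threshold. MS4A1 (670 and 19 reads) and CD34 (26 and 0) passed the threshold toward REH. CD79B (24198 and 4443 reads) did so only by a bare margin, at a log2 ratio of 2.001. Of 13 myeloid markers, 5 had at least 10 reads in REH and 3 in 697, with a sum of 261 and 3.19 CPM. MPO, myeloperoxidase, gave 251.5 CPM of the REH sum, and 7 of the 13 were at 0 reads in REH. The T-lineage markers summed to 33.6 CPM in REH and 52.7 CPM in 697, and the erythroid markers to 29.0 and 1.43 CPM. BCL11B made up most of both T-lineage sums (1141 reads in REH and 1848 in 697). CD247 (498 and 87) and CD3E (45 and 0) passed the threshold toward REH, and CD8A (0 and 10) toward 697. EPOR made up most of both erythroid sums (1365 and 31 reads). EPOR and SLC4A1 (68 and 1) passed the threshold toward REH, and 5 of the 9 erythroid markers had 0 reads there. The part of these differences in the ratios of the members was not tested. In such bulk libraries, fewer expressing cells and less RNA per cell cannot be told apart.

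The mature let-7 sequences are shown because the 3 families share let-7 as a known regulator. They come from RefSeq on GRCh38.p14, are written 5′ to 3′, and have the seed, bases 2 to 8, in capitals. RefSeq lists 9 mature names of the family, including miR-98, from 12 hairpin genes, and all 9 share the seed GAGGUAG. These 3 differ from each other only after the seed.
hsa-let-7a-5p: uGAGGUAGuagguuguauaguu
hsa-let-7b-5p: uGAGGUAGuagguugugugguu
hsa-miR-98-5p: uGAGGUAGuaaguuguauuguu
Mature microRNAs were not measured in these libraries.

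The complement of the seed, CTACCTC, was searched on the sense strand of the 3′ UTR of each gene's canonical transcript in GENCODE 44, of which there are 18856 for protein-coding genes. It occurs at least once in 9.80% of them and at least 3 times in 0.191%. All 7 members hold at least 1 match. IGF2BP1, LIN28B and HMGA2 hold 4 each, in 3′ UTRs of 6701, 4549 and 2999 bases beside a median of 1085 bases over all genes, and IGF2BP2, IGF2BP3, LIN28A and HMGA1 hold 1 each. The match is in capitals in the following windows, which are given for IGF2BP1, the member with the largest difference in read count, and for the single matches of the members that were expressed in both lines.
IGF2BP1, chr17:49051061-49051083, plus strand: tgtgtgcgaagtaaaCTACCTCa
IGF2BP1, chr17:49053698-49053720, plus strand: cagcagtgctagtaaCTACCTCa
IGF2BP1, chr17:49054352-49054374, plus strand: gtataaatggattaaCTACCTCa
IGF2BP1, chr17:49054997-49055019, plus strand: tcacttttgttttatCTACCTCt
IGF2BP2, chr3:185644220-185644242, minus strand: aacacacagaagaagCTACCTCa
IGF2BP3, chr7:23311795-23311817, minus strand: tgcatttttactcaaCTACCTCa
HMGA1, chr6:34245829-34245851, plus strand: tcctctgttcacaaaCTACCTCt
For HMGA2, the first match starts 21 bases into the 3′ UTR.
HMGA2, chr12:65963298-65963320, plus strand: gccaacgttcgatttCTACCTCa
Positions are on GRCh38. A match of these letters is a description of the annotated UTR and does not show that let-7 bound there in either line, nor which UTR the lines use.

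**Figure D1:**
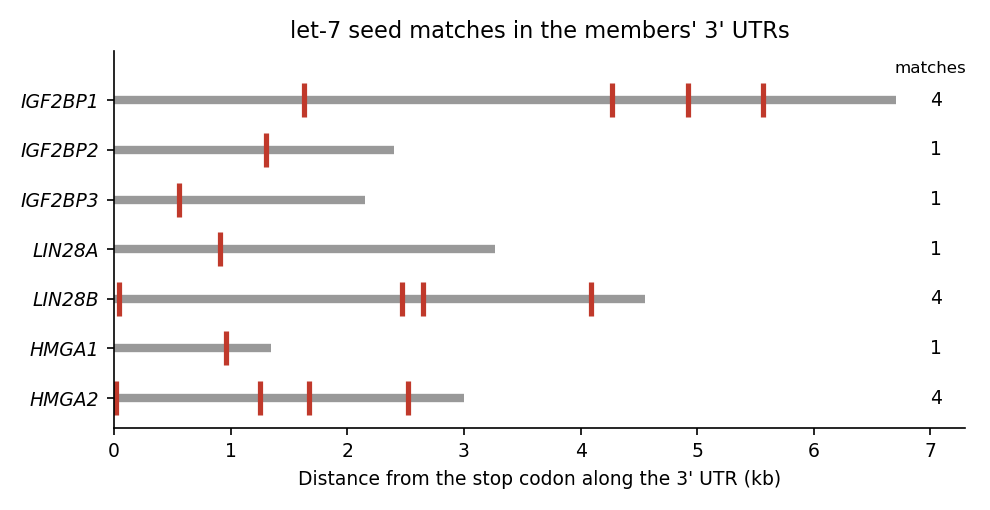
Matches to the let-7 seed (red ticks) along the 3′ UTR of the canonical transcript of each member (grey bars), by distance from the stop codon in kb. IGF2BP1, LIN28B and HMGA2 have 4 matches each and the other 4 members have 1 each.

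All 7 members had more reads in REH, the library with more reads in genes, than in 697. These raw counts include LIN28A (6 and 3 reads) and LIN28B (1 and 0 reads), which were too low to compare. The share of all genes with more reads in REH was not computed, so nothing is read from this. At a log2 ratio of at least 2, 3 of the 5 compared members (IGF2BP1, IGF2BP2 and HMGA2) were higher in REH, none was higher in 697, and IGF2BP3 and HMGA1 stayed within that fold. Over all 19145 genes, 20.7% passed this threshold (12.5% toward REH, 8.15% toward 697), and the median log2 ratio was 0.05. Since the contrast was known when the members were chosen, nothing is read from their count against these shares. Levels are given as CPM after scaling of the library totals, ratios are log2 of REH over 697, and the intervals in brackets are 95% intervals that cover counting error only.

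**Figure D2:**
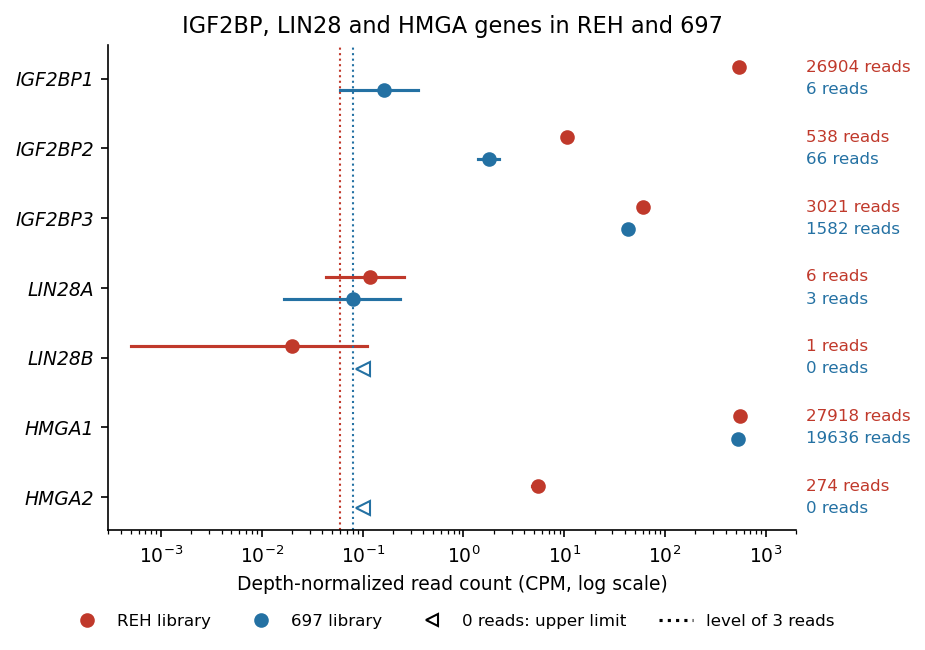
Level of each member (CPM, log scale) in the REH library (red) and the 697 library (blue), with 95% counting intervals as horizontal lines where they exceed the point, 95% upper limits for 0 reads as open triangles, and the level of 3 reads as dotted lines. IGF2BP1 lies at 535 CPM in REH and 0.162 CPM in 697, whereas the HMGA1 points nearly coincide at 555 and 531 CPM.

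Among the genes of the RNA-binding IGF2BP proteins, IGF2BP1 differed most. This gene on the plus strand of chromosome 17 (48997385 to 49056145) encodes the protein that binds the ACTB zipcode and stabilizes MYC messenger RNA. IGF2BP1 had 26904 reads in REH and 6 in 697, or 535 CPM and 0.162 CPM. The REH level was 3296-fold higher (interval 1514 to 8982), a log2 ratio of 11.57 [10.56, 13.13], and with 0.5 reads added to each count 0.0940% of the compared genes had a higher ratio. By read count IGF2BP1 held rank 156 of all genes in REH and rank 17486 in 697. With 6 reads behind the 697 value, the size of this ratio is uncertain by several fold from counting alone.

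IGF2BP2, on the minus strand of chromosome 3 (185643130 to 185825042), is a family member tied to metabolism and to type 2 diabetes risk. It had 538 reads in REH and 66 in 697, which are 10.7 and 1.79 CPM. REH was therefore 5.99-fold higher (4.63 to 7.86), a log2 ratio of 2.57 [2.21, 2.97]. Of the compared genes, 10.1% had a higher ratio, so that IGF2BP2 followed the direction of IGF2BP1 at a far smaller size.

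IGF2BP3, on the minus strand of chromosome 7 (23310209 to 23470491), is the paralog known as a marker of aggressive tumors and of KMT2A-rearranged leukemia. IGF2BP3 had 3021 reads in REH and 1582 in 697, or 60.1 and 42.8 CPM. The log2 ratio was 0.49 [0.40, 0.58], a 1.40-fold difference that 33.9% of the compared genes exceeded in the same direction. Both libraries thus held IGF2BP3 RNA at levels of the same order, unlike the other 2 paralogs.

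The make-up of the family differed between the lines. The summed IGF2BP level was 606 CPM in REH and 44.8 CPM in 697. IGF2BP1 supplied 88.3% of the family's reads in REH, whereas IGF2BP3 supplied 95.6% in 697. Without IGF2BP1, the reads of the family came mainly from IGF2BP3 in both libraries.

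**Figure D3:**
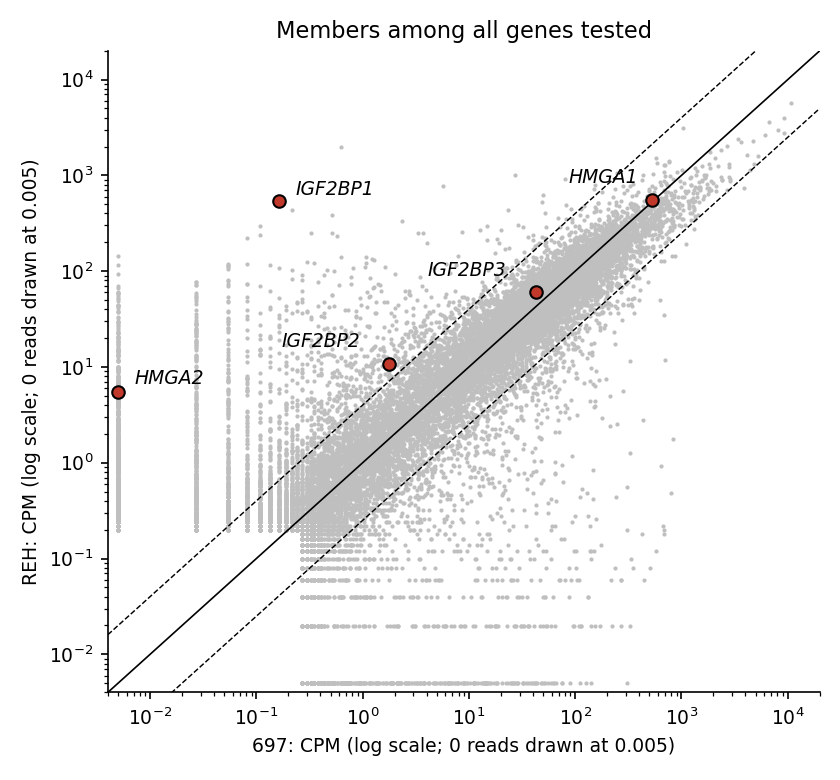
CPM in REH against CPM in 697, both on log scales, for the 19145 compared genes (grey) and the 5 compared members (red); the solid line marks equal levels, the dashed lines a log2 ratio of 2 in size, and 0 reads are drawn at 0.005 CPM. IGF2BP1 lies far above the upper dashed line, IGF2BP2 and HMGA2 also lie above it, and IGF2BP3 and HMGA1 lie close to equality.

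The counts of IGF2BP3 left out part of its reads, because its exons share 1521 bases, or 17.8% of its exon length, with MALSU1, a mitochondrial ribosome assembly factor gene on the opposite strand. The counter drops reads that fit 2 genes when strand is ignored and keeps them when each strand is counted separately. The 2 strand columns of IGF2BP3 summed to 4689 reads in REH and 2523 in 697, which is 1668 and 941 reads above the pooled count. The sums of MALSU1 exceeded its pooled counts of 1014 and 870 by the same 1668 and 941 reads. The IGF2BP3 sum was 1.55 times the pooled count in REH and 1.59 times in 697, while the median protein-coding gene stood at 1.00 and 3.73% (REH) and 3.52% (697) of 9926 such genes reached the value of IGF2BP3.

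Column 3 held 50.1% of the strand-assigned reads in REH and 50.2% in 697, so the counts do not separate strands and the shared reads cannot be assigned to IGF2BP3 or MALSU1. If all of them were given to IGF2BP3, its level would be 93.3 CPM in REH and 68.3 CPM in 697. With every gene summed over the strand columns and the libraries rescaled, the log2 ratio of IGF2BP3 was 0.46, close to the 0.49 of the pooled counts. The level of IGF2BP3 therefore depends on the counting far more than its ratio does.

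**Figure D4:**
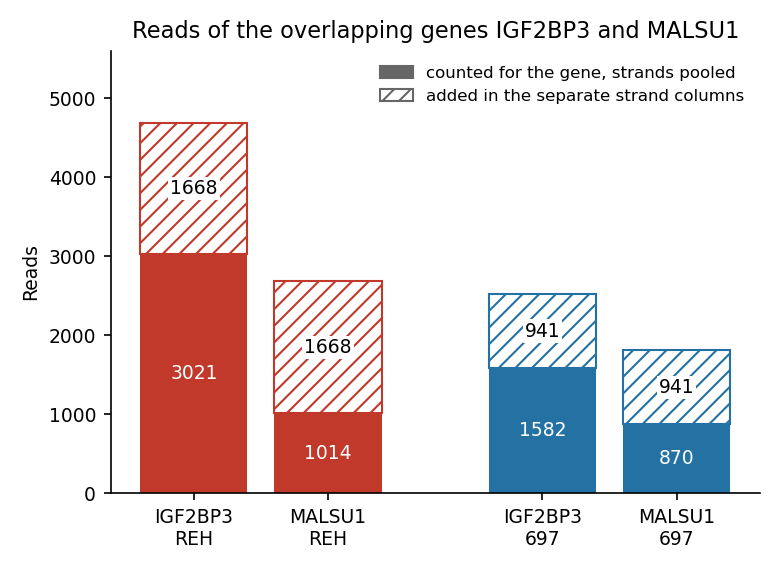
Reads counted for IGF2BP3 and MALSU1 with strands pooled (filled) and the reads that the separate strand columns add (hatched), in REH (red) and 697 (blue). The hatched parts are the same height for both genes within a library, 1668 reads in REH and 941 in 697.

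RNA of the LIN28 genes, whose proteins hold let-7 precursors back from maturation, was barely detected. LIN28A, on chromosome 1 (26410817 to 26429728, plus strand), had 6 reads in REH and 3 in 697, or 0.119 and 0.0812 CPM. Its log2 ratio of 0.45 has an interval of -1.67 to 3.18, which covers differences in both directions. LIN28B, on chromosome 6 (104936616 to 105083332, plus strand), had 1 read in REH and 0 in 697, which is below the floor of 3 reads in both. On unscaled totals 3 reads equal 0.0664 CPM in the REH library and 0.0730 CPM in the other, so that a difference in LIN28B was not detectable at this depth.

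Of the genes of the HMGA chromatin proteins, HMGA1 RNA was abundant in both lines and HMGA2 RNA was found in REH. HMGA1, on chromosome 6 (34236873 to 34246231, plus strand), is the member usually expressed in proliferating blood cells. It had 27918 reads in REH and 19636 in 697, or 555 and 531 CPM. The log2 ratio of 0.06 [0.04, 0.09] lay next to the median of all genes, and only 0.872% of the compared genes lay closer to it. The 8 annotated HMGA1 pseudogenes held 45 reads in REH and 39 in 697, the REH sum being 0.161% of the HMGA1 count. Reads that fit the gene and a pseudogene equally well are absent from these counts.

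HMGA2, on chromosome 12 (65824460 to 65966291, plus strand), is the paralog of embryonic mesenchyme and fetal hematopoietic stem cells. HMGA2 had 274 reads in REH, or 5.45 CPM, and 0 reads in 697. Against a floor of 3 reads in the 697 library, the REH level was 67.1-fold higher. The 95% counting interval of the ratio starts lower, at 54.2-fold, and has no upper end. Despite this ratio, HMGA2 made up little of the HMGA reads in REH, of which HMGA1 held 99.0%.

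Per kb of annotated exon, the order of levels within REH was HMGA1 at 239 CPM per kb, IGF2BP1 at 55.6, IGF2BP3 at 7.04, IGF2BP2 at 2.01, HMGA2 at 0.362 and LIN28A at 0.0300. In 697 it was HMGA1 at 228 CPM per kb, IGF2BP3 at 5.02, IGF2BP2 at 0.335 and IGF2BP1 at 0.0169, with LIN28A left out at the floor of 3 reads. IGF2BP1 thus passed from the second level in REH to the lowest of these 4 in 697, and no counting intervals of neighbours in these orders overlapped. Among protein-coding genes with at least 10 reads in REH, the level per kb of HMGA1 was above 99.6% and that of IGF2BP1 above 96.5%. IGF2BP3 lay above 56.7% of such genes in REH and 44.4% in 697, and HMGA2 above 13.6% in REH. Taking the longest transcript in place of all annotated exons raised IGF2BP3 to 14.1 CPM per kb in REH and 10.0 in 697, and HMGA2 to 0.673 in REH, without a change in order.

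The protein-coding genes beside the members did not all share their ratios. On either side of IGF2BP1, the hormone gene GIP had 1 read in REH and 0 in 697, and the glycosyltransferase gene B4GALNT2 had 0 reads in both. Beside HMGA2, MSRB3, a methionine sulfoxide reductase, had 138 reads in REH and 1 in 697, whereas LLPH on the other side had 481 and 394 (log2 ratio -0.16). IGF2BP2 lies between SENP2 (0.60) and TRA2B (-0.23), and IGF2BP3 between TRA2A (-0.16) and GPNMB, which had 49 reads in REH and 0 in 697. Next to HMGA1, the glutamate receptor gene GRM4 had 2 reads in REH and 103 in 697, and SMIM29 had a log2 ratio of 0.87.

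Some genes overlap the members. The lncRNA lnc-GIP-1 (ENSG00000250838), on the opposite strand of IGF2BP1 with 37 exon bases in common, had 96 reads in REH and 0 in 697, and its strand columns summed to 291 and 0. The processed pseudogene ENSG00000251550, within IGF2BP1 on the same strand, had 59 and 1 reads. The antisense gene ENSG00000251461 had 6 and 0 reads, and the small RNA genes Metazoa_SRP and RNU6-826P had 1 and 3 reads in REH and 0 in 697. Reads of IGF2BP1 and of these overlapping genes were not separated by strand. HMGA2-AS1, antisense to HMGA2, had 5 reads in REH and 0 in 697, RPSAP52 had 1 and 2, and ENSG00000256083 had 0 in both. Over IGF2BP3, the pseudogene ENSG00000232627 had 9 and 2 reads, SNORD65C had 4 and 0, and RNU7-143P had 0 in both. IGF2BP2-AS1 had 1 read in REH and 0 in 697, while MIR548AQ, which also overlaps IGF2BP2, had 0 in both.

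The protein-coding genes closest to a member in log2 CPM over these 2 libraries are given as a description only, since 2 values per gene fit many genes. For IGF2BP1 they were MFAP4, an extracellular matrix protein, with 21764 reads in REH and 8 in 697 (distance 0.49), and SHANK3, a synaptic scaffold, with 15048 and 4 (distance 0.99). For HMGA2 they were HOXA9, with 280 reads in REH and 0 in 697, and CD37, with 289 and 0. IGF2BP2 was nearest to MYO7B (520 and 67 reads) and IQSEC2 (607 and 70 reads). IGF2BP3 was nearest to SLC19A1 and IFNAR1, with 812 genes within a distance of 0.5, and HMGA1 was nearest to LARP1 and ATXN2L.

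The genes around the members in their pathways were then counted, from lists drawn up with earlier results of these data known. Of 20 genes of let-7 biogenesis and LIN28 cofactors, all compared, 0 were higher in REH and 1 was higher in 697, with a median log2 ratio of -0.01 beside 0.05 over all genes. The 1 gene was TRIM71, a stem cell ubiquitin ligase and let-7 target, with 65 reads in REH and 516 in 697 (-3.42 [-3.83, -3.06]). DDX17, a helicase of the microprocessor, had the most reads per kb (119 and 185 CPM per kb). Of 17 let-7 hairpin genes and transcripts that host them, 7 were compared and none passed the threshold (median -0.16). HUWE1 was highest per kb in REH (32.6 CPM per kb) and WDR82 in 697 (38.4 CPM per kb), and the log2 ratio of HUWE1 was -0.16.

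Of 29 compared let-7 targets other than the members, 6 were higher in REH and 3 in 697, with a median log2 ratio of 0.12. CDK6, a kinase of the G1 phase, had 45649 reads in REH and 2989 in 697 (3.49), and NR6A1, an orphan nuclear receptor of early embryos, had 225 and 20 (3.02). CCND1 had 105 and 8 reads, CCND2 168 and 0, MYCN 24 and 0 and ACVR1C 18 and 2. E2F5 (780 and 3678 reads, -2.68) and PRDM1, a plasma cell regulator (48 and 200 reads, -2.49), were higher in 697, as was TRIM71. MYC had the most reads per kb of this list over both libraries together, while CDK6 was higher per kb in REH (74.2 against 40.0 CPM per kb). MYC had 12286 reads in REH and 26677 in 697 (-1.56). Over all compared genes, 12.5% passed the threshold toward REH and 8.15% toward 697. The part of let-7 in the ratios of these targets and of the members was not tested.

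Among 20 compared transcripts known as clients of IGF2BP proteins, 2 were higher in REH (CDK6 and CCND1) and 2 in 697, with a median of -0.88. Those higher in 697 were HIF1A, the hypoxia factor, with 2232 reads in REH and 7976 in 697 (-2.28), and CD44, an adhesion receptor, with only 2 and 11 reads. ACTB, which encodes beta-actin and holds the zipcode that IGF2BP1 binds, had 102764 and 98312 reads (-0.38). IGF2, the growth factor that gave the family its name, had 0 reads in both libraries.

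The genes of proteins that share ribonucleoprotein particles with IGF2BP proteins did not pass the threshold in either direction (0 of 18, median -0.43). PABPC1, the poly(A)-binding protein, had the most reads per kb over both libraries together, with 48063 in REH and 102720 in 697 (-1.54). The m6A writers, erasers and other readers likewise gave 0 of 17 past the threshold, with a median of -0.05, and HNRNPC had the most reads per kb (-0.61). The ratios of the compared m6A writers, erasers and other readers were thus within 4-fold, and their part in the ratio of IGF2BP1 was not tested.

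Of 17 compared genes of other HMG chromatin proteins, 0 were higher in REH and 2 in 697, with a median of -0.53. They were TOX (34 reads in REH and 553 in 697, -4.45) and TOX2 (9 and 456 reads, -6.03), HMG-box factors of lymphoid differentiation. HMGB2, an abundant HMG-box protein, had the most reads per kb (311 and 553 CPM per kb in REH and 697). In REH this was of the same order as the 239 CPM per kb of HMGA1.

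Of the IGF axis, 11 genes were compared, 0 were higher in REH and 1 was higher in 697, with a median of 0.17. IGFBP7, a secreted IGF-binding protein, had 731 reads in REH and 4076 in 697 (-2.92), and IGFBP4 had the most reads per kb (-1.64). IGF1R, the receptor, had 5235 and 2921 reads (0.40).

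**Figure D5:**
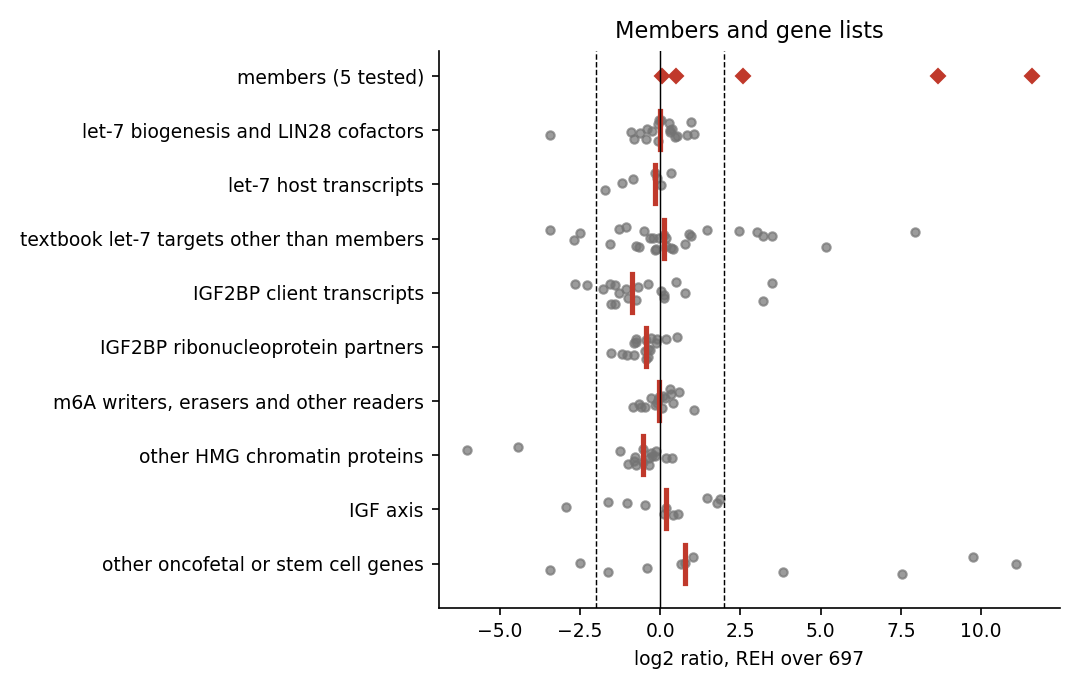
Log2 ratio of REH over 697 for the 5 compared members (red diamonds) and for the compared genes of 9 lists (grey points, with the list median as a red bar); dashed lines mark a ratio of 2 in size. IGF2BP1 at 11.57 and HMGA2 lie to the right of most list genes, and the medians of the lists lie between -0.88 and 0.76.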

How the data were processed

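RNA of REH and 697 cells was sequenced, with 1 library per line, grouped by the cell line named in the labels. The deposited values are raw read counts per gene made by the authors with STAR, which counts uniquely mapped reads, pooled over strands and for each strand; the pooled column was used. The submitters' processing notes name hg19 and the study's methods hg38. The annotation release is not given in the sources used here. The labels describe ribodepleted, stranded libraries and the methods poly(A) purification.

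GENCODE 44 (GRCh38) supplied symbols, exon lengths and positions by Ensembl ID, of which 51996 of 57773 matched and 5777 did not, and RefSeq the let-7 sequences. The 19145 genes that reached 10 reads in REH or 697 were compared. Library totals were scaled with TMM (factors 1.11 for REH and 0.899 for 697) in edgeR 4.0.16 under R 4.3.3. The log2 ratio used 0.5 added reads, with an exact 95% Clopper-Pearson interval that covers counting error only. That interval treats each read as independent, although duplicate reads are not independent molecules. No test was run, because DESeq2 as used by the authors and edgeR need replicates to test.

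The members and lists were chosen with earlier results of these data known. Named genes were all members, the overlapping, neighbouring and closest genes of the members that reached 10 reads, and from each list the gene with the most reads per kb and up to 5 past the threshold with the most reads. ACVR1C, CCND2, MYCN, IGF1R, IGF2, IGLL1, PROM1 and WDR82 were named outside this rule after their values were seen. So were the genes of the IGF2BP1 window and the seed-match group in the closing section. Some genes are not reported here. Alternatives were unscaled totals, size factors of DESeq2 1.42.0, TMM from protein-coding genes, 5 added reads, minimums of 1 and 50 reads, a log2 threshold of 1, the longest transcript as length, each strand column and, chosen after seeing the data, their sum. The computation was tested on simulated data. Other steps ran in Python 3.11.15 (scipy 1.17.1, pandas 2.3.3, matplotlib 3.10.9).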

Additional observations from a re-analysis of the deposited data

Results flagged for a closer look

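A signal appeared in columns that the comparison of REH and 697 did not use. The separate strand columns held 1668 reads in REH and 941 reads in 697 that were added alike to IGF2BP3 and MALSU1, whose exons share a stretch on opposite strands, and were in neither pooled count. They equal 35.6% of the IGF2BP3 strand-column sum in REH and 37.3% in 697.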

How the results depend on the processing

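With 1 library per line, the spread between cultures is unknown, and leaving out a replicate was not possible. No paired analysis was possible because REH and 697 have 1 library apiece. The 3 members higher in REH and the 0 higher in 697 were the same in number under every alternative run. Over the 9 scalings, added reads, minimums and strand columns, log2 ratios ran from 10.81 to 12.74 for IGF2BP1, 2.48 to 2.88 for IGF2BP2, 0.46 to 0.80 for IGF2BP3, 0.04 to 0.37 for HMGA1 and 5.36 to 8.96 for HMGA2, all above 0. Unscaled totals moved the median of all genes from 0.05 to 0.36, and with it the medians of the IGF2BP ribonucleoprotein partners from -0.43 to -0.13 and of the other HMG proteins from -0.53 to -0.22. The median of the let-7 targets was -0.02 with a minimum of 50 reads. The other 109 counts and list medians stayed within 1.5 times or within the interval of the median. Of the values of single members, 20 moved beyond their counting interval and 47 did not, without a change of sign. The depth limits what can be said of LIN28A and LIN28B.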

Other observations

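Of 28 genes in a list of other oncofetal or stem cell genes, only 11 reached 10 reads in a library and were compared. In the full list, 10 genes had 0 reads in REH and 16 had 0 reads in 697. Of the 11, 4 were higher in REH and 2 in 697, beside 12.5% and 8.15% of all compared genes. Their median log2 ratio was 0.76, with a wide interval of the median from -2.51 to 9.75. PEG10, an imprinted retrotransposon-derived gene, had 1491 reads in REH and 0 in 697, and SALL4, a zinc finger factor of embryonic stem cells, had 625 and 2. PRAME, a cancer-testis antigen gene, had 584 reads in REH and 0 in 697, and PROM1, a stem cell surface marker, had 204 and 10. TERT, the telomerase catalytic subunit, had 1462 reads in REH and 6139 in 697 (-2.51), so that like TRIM71 it was higher in 697.

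Within 500 kb of IGF2BP1, a window chosen after its values were seen, 22 genes were compared, 9 of them higher in REH and none in 697, with a median log2 ratio of 0.70, beside 12.5% and 8.15% of all compared genes. Of the 9, ENSG00000250838 and ENSG00000251550 overlap IGF2BP1, and their reads were not separated from it by strand. The same window held 1 of 7 genes higher in REH around IGF2BP2, 3 of 13 around IGF2BP3, 1 of 23 around LIN28A, 0 of 5 around LIN28B, 1 of 8 around HMGA1 and 0 of 5 around HMGA2, and 2, 1 and 1 higher in 697 around LIN28A, HMGA1 and HMGA2. The genes near IGF2BP1 higher in REH included PRAC2 (126 reads in REH and 0 in 697), HOXB9 (30 and 0), PHOSPHO1 (124 and 9) and NGFR (134 and 17). CALCOCO2 (6488 and 7375 reads, -0.63) and ATP5MC1 (1465 and 2147 reads), in the same window, stayed within the threshold.

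There are 12 protein-coding genes with at least 4 let-7 seed matches in the canonical 3′ UTR, 3 of them members. HEMK1 (-0.25), HIC2 (-0.11), ZBTB37 (-0.24) and SMC1A (-0.31) of that group were close to equal in REH and 697. LIMD2 (-1.36) also stayed within the threshold, while NR6A1 was higher in REH and TRIM71 in 697. The median log2 ratio was 0.02 for genes without a match, also 0.02 with 1 match, 0.13 with 2 and -0.14 with 3 or more, the last over 28 compared genes.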
